A study of Mus musculus with 16 samples.

Results

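Mammary adipose tissue from mice eating a high-fat diet at dissection was compared with the same tissue from all mice eating a low-fat diet at dissection. The comparison took 4 DIO-HFD libraries against 12 low-fat libraries, which made up all 16 libraries of the series, and asked for each gene whether it differed in 1 direction from every one of the 3 low-fat groups. The low-fat groups were CON-LFD, never made obese and kept on low-fat diet D12450J, DIO-LFD, made obese on high-fat diet D12492 and then moved to D12450J, and DIO-VSG, made obese likewise and given a vertical sleeve gastrectomy with the move to D12450J. DIO-HFD mice stayed on D12492. Each group had 4 libraries, each with its own animal number. All mice were wild-type female C57BL/6NCrl, all had either a sham operation or the gastrectomy, and all had received E0771 mammary tumor cells in 1 mammary fat pad 22 weeks after randomization. The tissue sequenced was the fat pad contralateral to the tumor, so every group, the control included, came from tumor-bearing mice. DIO-HFD differed from the low-fat groups in diet and, by design, in obesity, and the 2 cannot be told apart here.

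White adipose tissue stores fatty acids as triglyceride. It can take fatty acids ready-made from dietary fat or build them from sugar by de novo lipogenesis, in which citrate leaves the mitochondria, is cleaved to acetyl-CoA, is carboxylated by acetyl-CoA carboxylase and is assembled into palmitate by fatty acid synthase. The transcription factors SREBP-1c, encoded by Srebf1, and ChREBP, encoded by Mlxipl, drive these enzymes after carbohydrate feeding, and dietary fat is known to hold them down. The mammary fat pad also holds epithelial ducts, vessels, macrophages and a lymph node.

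The libraries held 46907377 to 57610899 reads assigned to genes. Levels are given as normalized counts, that is reads divided by a factor for library size, and log2 differences are on the scale of log2(normalized count + 1) with their standard error (SE). Adipocyte markers (Adipoq, Plin1, Fabp4 and 9 others) were high in every library, with a summed level of 563029 to 1936236 normalized counts. Several libraries stood apart. The lowest adipocyte sum, and the highest sums of B cell markers (279065) and T cell markers (69326), were those of DIO-HFD replicate 1. B cell, T cell and lymph node stroma markers were also high in DIO-HFD replicate 4, CON-LFD replicate 3 and all 4 DIO-VSG libraries, and low in DIO-HFD replicates 2 and 3 and CON-LFD replicates 2 and 4. The skeletal muscle sum was 168736 in DIO-LFD replicate 4, 38920 in CON-LFD replicate 4 and 28861 in DIO-VSG replicate 2, against 1028 to 3393 in the DIO-HFD libraries. DIO-LFD replicate 1 had an erythroid sum of 464129, against at most 55825 elsewhere. The labels also list E0771 as the cell line. Tumor epithelium could not be told from normal ducts with the markers used, since both express keratins of simple epithelium.

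No gene passed an adjusted P value below 0.05 for DIO-HFD against the mean of the 3 low-fat groups in limma-trend (0% of 21218 genes tested), and the smallest adjusted P value was 0.1026. At an unadjusted P value below 0.05, 1056 genes were higher (4.98%) and 1413 were lower (6.66%) in DIO-HFD. The voom method of limma also called 0 genes, while a B cell marker score as covariate gave 128 and library weights gave 4350. What follows is therefore a description of genes that met the stricter of 2 unadjusted requirements, an unadjusted P value below 0.05 in 1 direction against CON-LFD, against DIO-LFD and against DIO-VSG. These 3 contrasts share the 4 DIO-HFD libraries and are not independent. The requirement was met by 430 genes (2.03%), 122 higher (0.575%) and 308 lower (1.45%), and none of them passed the adjustment of the largest of the 3 P values over all genes. Without DIO-HFD replicate 1 the number was 513 and the share that was lower went from 71.6% to 43.7%. A second description needs no model. In 27 genes all 4 DIO-HFD values lay above all 12 low-fat values (0.127%), and in 93 genes they lay below (0.438%). Of the 430 genes, 98 were separated in this way and 346 were annotated as protein coding. By their names or annotation, 98 (18 higher and 80 lower) were predicted genes or pseudogenes, a class that overlaps with the protein-coding annotation, and are not named further. In the text below, a gene "met the requirement" if it was among the 430, and a single difference and adjusted P value given for a gene are those of limma-trend against the mean of the low-fat groups.

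Most genes of fatty acid synthesis had a lower mean in DIO-HFD. Of 11 genes on the list, 10 had a lower mean in DIO-HFD than in each low-fat group (24% of all genes tested did, and 23.5% had a higher mean than in each), 7 met the requirement and 2 were separated from all low-fat libraries. The median log2 difference of the list was -1.53 against CON-LFD, -2.11 against DIO-LFD and -1.89 against DIO-VSG, where the medians over all genes were 0.02, -0.01 and -0.02. In bulk tissue, fewer cells of a type and less RNA per cell cannot be told apart. With each library left out in turn, 5 to 7 of the 11 genes met the requirement. The promoters of 4 of these 7 genes are shown here as examples of windows that hold the CCAAT box, and were chosen for holding it. The windows of Acaca and Aacs held no match, and that of Acacb held 1. The sequences are the 250 bases before the start site of the RefSeq entry (build GRCm38.p6), 5′ to 3′ on the gene's strand. An entry's start need not be the outermost start of the gene. The windows of Fasn and Slc25a1 end where the annotated gene begins, those of Thrsp and Acss2 run into the gene and have their matches inside it, and those of Acaca and Acacb lie wholly inside the gene, so that they are windows of internal starts. Capitals mark CCAAT or its reverse complement ATTGG, the box bound by NF-Y, a factor known to act with SREBP-1c, and CACGTG, an E-box of the kind that ChREBP and USF can bind.
Fasn, chr11:120824548-120824797, minus strand: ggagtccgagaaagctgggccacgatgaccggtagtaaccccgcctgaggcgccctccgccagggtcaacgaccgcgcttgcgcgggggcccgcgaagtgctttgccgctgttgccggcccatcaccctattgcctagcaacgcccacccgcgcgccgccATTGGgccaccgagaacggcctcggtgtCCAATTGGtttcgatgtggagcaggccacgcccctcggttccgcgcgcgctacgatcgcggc
Thrsp, chr7:97417551-97417800, minus strand: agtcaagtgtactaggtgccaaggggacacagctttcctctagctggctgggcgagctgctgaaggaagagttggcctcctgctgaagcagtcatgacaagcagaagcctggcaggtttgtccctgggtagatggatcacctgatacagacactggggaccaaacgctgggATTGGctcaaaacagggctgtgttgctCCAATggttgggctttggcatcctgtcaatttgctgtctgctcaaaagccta
Slc25a1, chr16:17928220-17928469, minus strand: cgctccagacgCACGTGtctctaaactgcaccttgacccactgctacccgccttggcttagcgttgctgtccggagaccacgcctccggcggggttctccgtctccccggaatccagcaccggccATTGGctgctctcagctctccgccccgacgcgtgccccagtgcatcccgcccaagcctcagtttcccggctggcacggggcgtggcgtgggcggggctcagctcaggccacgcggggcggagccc
Acss2, chr2:155517793-155518042, plus strand: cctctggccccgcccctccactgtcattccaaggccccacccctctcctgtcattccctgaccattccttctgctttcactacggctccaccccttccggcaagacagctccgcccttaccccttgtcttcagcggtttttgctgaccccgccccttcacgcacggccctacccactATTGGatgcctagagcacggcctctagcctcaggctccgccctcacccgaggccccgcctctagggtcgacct
The Fasn window held 3 matches, 2 of them overlapping as CCAATTGG, and the Thrsp window held 2. Slc25a1 and Acss2 held 1 each, and the CACGTG of Slc25a1 was the single CACGTG found. Other E-box sequences were not searched. Over the 18 genes of fatty acid synthesis, NADPH supply, desaturation and triglyceride synthesis that met the requirement, 15 had an entry, with 16 promoters. CCAAT on either strand was in 7 of the 16 (43.8%), against 34.4% of 17280 promoters of listed genes of the same length. CACGTG was in 1 of 16, against 7.5%, and TCACNCCAC, a sterol regulatory element of the kind that SREBP binds, was in 0 of 16, against 1.1%, searched on both strands. These are letter matches, and no binding was measured.

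Acaca encodes acetyl-CoA carboxylase 1, which makes the malonyl-CoA used for chain building (chr11:84129672-84401651, GRCm38). Its normalized counts were 4712, 11640, 9778 and 8210 in DIO-HFD. They were 74055, 52504, 23297 and 44973 in CON-LFD, 33002, 128797, 63859 and 116118 in DIO-LFD, and 19535, 83395, 118106 and 128629 in DIO-VSG. The groups did not overlap, and the highest DIO-HFD library lay under the lowest low-fat library, DIO-VSG replicate 1. The means were 8585 ± 2938 (SD, n = 4) in DIO-HFD against 48707 ± 20949, 85444 ± 44857 and 87416 ± 49209 in CON-LFD, DIO-LFD and DIO-VSG. The log2 difference was -2.46, -3.20 and -3.11 in the same order (SE 0.588 each), and -2.93 against their mean (SE 0.48, 7.6-fold lower, adjusted P = 0.1033, limma-trend). Acaca met the requirement in all 16 fits that left out 1 library. Its adjusted P value was below 0.05 with library weights or with the B cell covariate. It was also below 0.05 without CON-LFD replicate 3, without DIO-LFD replicate 1 or without DIO-VSG replicate 1. Each of these 3 libraries held the lowest Acaca value of its group, so leaving it out took away that group's value closest to DIO-HFD.

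Fasn encodes fatty acid synthase (chr11:120805846-120824547). It was at 10120, 23536, 35461 and 20232 normalized counts in DIO-HFD. The low-fat libraries gave 474207, 245936, 84150 and 226136 in CON-LFD, 21753, 694004, 310259 and 685104 in DIO-LFD, and 60159, 455881, 604113 and 522963 in DIO-VSG. All low-fat libraries but DIO-LFD replicate 1 were above every DIO-HFD library, and that library lay inside the DIO-HFD range. The difference from the low-fat mean was -3.62 (SE 0.83, 12.3-fold lower, adjusted P = 0.1416). Thrsp (Spot 14, a lipogenic protein of adipose and liver) was at 1228, 3036, 2020 and 5863 in DIO-HFD and at 2470 to 41210, median 18048, in the low-fat libraries, a difference of -2.58 (SE 0.65, adjusted P = 0.1692). It overlapped only through DIO-LFD replicate 1 and DIO-VSG replicate 1.

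**Figure D1:**
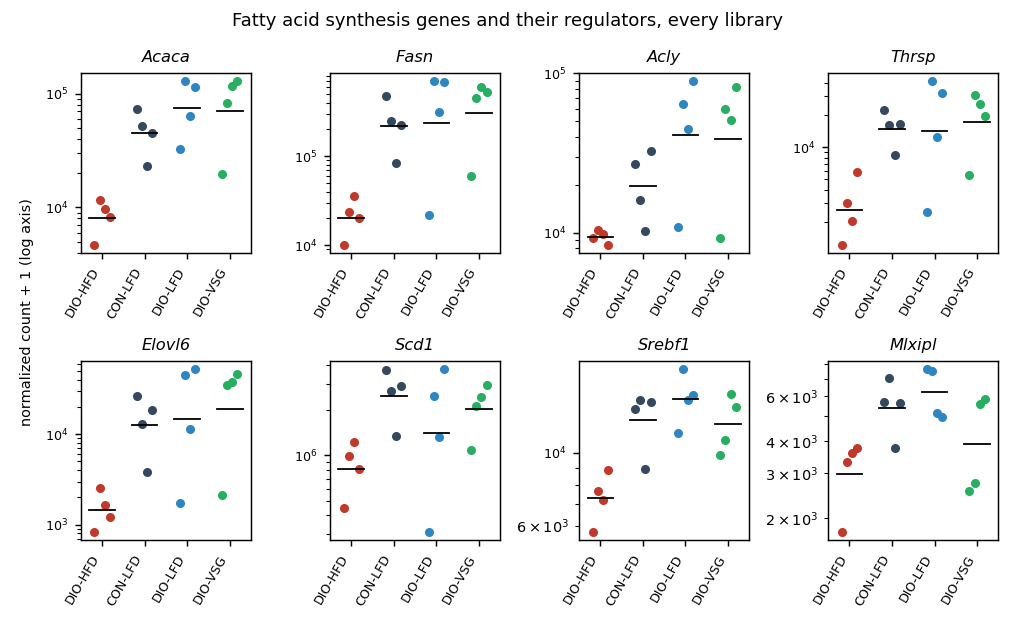
Normalized count + 1 (log axis) of 8 genes of fatty acid synthesis and its regulators in each of the 16 libraries. Points are libraries and bars are group means on the log scale. The DIO-HFD points of Acaca (4712 to 11640) and Srebf1 (5739 to 8827) lie under all low-fat points, while those of Fasn, Acly, Thrsp, Elovl6, Scd1 and Mlxipl overlap with low-fat libraries.

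The other 4 genes of this list that met the requirement supply or use acetyl-CoA, and 3 of them (Acacb, Slc25a1 and Acss2) were picked for naming after their values were seen. Acss2, which makes acetyl-CoA from acetate, was at 1343, 1718, 1889 and 1703 in DIO-HFD against 2153 to 22058 (median 8504) in the low-fat libraries, with no overlap, and differed by -2.16 (SE 0.55, adjusted P = 0.1768). Acacb, the mitochondrial form of the carboxylase, differed by -2.12 (SE 0.55, adjusted P = 0.1811). Slc25a1, the citrate exporter of the mitochondrion, differed by -1.66 (SE 0.48, adjusted P = 0.2122), and Aacs, which activates acetoacetate, by -1.42 (SE 0.30, adjusted P = 0.1185). Acly, the enzyme that cleaves the exported citrate, did not meet the requirement. Its DIO-HFD values were 9249, 10376, 9810 and 8445, a narrow range, but 3 low-fat libraries (9261, 10345 and 10878) lay as low or nearly so, and the difference was -1.74 (SE 0.56, adjusted P = 0.2473).

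Of the elongases and desaturases, Elovl6 was the 1 gene that met the requirement. Elovl6, which elongates palmitate to stearate, was at 832, 2559, 1656 and 1209 in DIO-HFD and at 1739 to 53138 (median 22577) in the low-fat libraries. The difference was -3.40 (SE 0.91, 10.6-fold lower, adjusted P = 0.1903), and the overlap came from DIO-LFD replicate 1 and DIO-VSG replicate 1. Scd1, the main delta-9 desaturase of adipose tissue, did not meet the requirement. It was at 451143, 999504, 1234063 and 807542 in DIO-HFD, while the low-fat values ran from 311099 in DIO-LFD replicate 1 to 3768151 in DIO-LFD replicate 4. Its difference was -1.61 against CON-LFD, -0.78 against DIO-LFD and -1.30 against DIO-VSG (SE 0.677 each), with adjusted P = 0.4082 against their mean, where the difference was -1.23 and turned to 0.20 with quantile normalization. Without DIO-LFD replicate 1 Scd1 met the requirement. Of the 14 genes of this list that were tested, 10 were lower than in each low-fat group and 1 was higher, and 3 met the requirement without DIO-LFD replicate 1.

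Of the 14 regulators tested, 8 had a lower mean than in each low-fat group, none had a higher one, and 2 met the requirement (1 to 3 with 1 library left out). Srebf1 was at 5739, 7626, 7174 and 8827 in DIO-HFD and at 8923 to 18029 (median 14034) in the low-fat libraries, separated by the small step from 8827 to 8923. The difference was -0.85 (SE 0.16, 1.8-fold lower, adjusted P = 0.1033). Pnpla3, a lipase-like protein controlled by SREBP-1c and ChREBP, was at 921, 1701, 5995 and 2891 against 3042 to 28037, a difference of -1.74 (SE 0.55, adjusted P = 0.2437). Mlxipl differed by -0.76 (SE 0.26), with -0.86 and -1.06 against CON-LFD and DIO-LFD but -0.38 against DIO-VSG, and did not meet the requirement (adjusted P = 0.2719). The gene-level values do not separate the ChREBP isoforms.

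Most genes of triglyceride assembly also had a lower mean in DIO-HFD, and 0 were separated from all low-fat libraries. Of 17 genes, 15 had a lower mean than in each low-fat group and 7 met the requirement (4 without DIO-HFD replicate 1), with list medians of -0.81, -0.88 and -0.76 against CON-LFD, DIO-LFD and DIO-VSG. Gpd1, which makes glycerol 3-phosphate from a glycolytic intermediate, was at 3360, 8576, 26531 and 16065 in DIO-HFD and at 16370 to 75354 (median 44897) in the low-fat libraries. It overlapped through DIO-HFD replicate 3 alone and differed by -2.06 (SE 0.48, adjusted P = 0.1421). Agpat2, an acyltransferase without which adipose tissue fails to form, differed by -1.51 (SE 0.44, adjusted P = 0.2182). Pck1, the enzyme of glyceroneogenesis, was at 38859, 75756, 45560 and 61867 against 62307 to 282881, a difference of -1.28 (SE 0.32, adjusted P = 0.1601). The smallest of its 3 differences was that against DIO-VSG, -0.92. Pck1 met the requirement in 12 of the 16 fits that left out 1 library. Mogat1, Dgat1 and Lpin1 differed by -1.06, -0.94 and -1.03. Agpat9, now named Gpat3, differed by -0.89 (adjusted P = 0.264).

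NADPH, the reductant of fatty acid synthesis, comes from the pentose phosphate pathway and malic enzyme. Of 9 genes, 6 were lower than in each group and 3 met the requirement. Tkt (transketolase) was at 9247, 14237, 15066 and 12742 against 13977 to 81315, a difference of -1.71 (SE 0.45, adjusted P = 0.1824). Me1 (malic enzyme) differed by -1.82 (SE 0.55, adjusted P = 0.2305) and Taldo1 (transaldolase) by -0.68 (SE 0.18, adjusted P = 0.1878). Without DIO-HFD replicate 1 none of the 9 met the requirement, and without CON-LFD replicate 1 only 1 did. Over the 16 fits without 1 library the count was 0 to 4.

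Of 22 genes of glucose uptake and glycolysis, 17 were lower and 2 higher than in each low-fat group, and 5 met the requirement, 4 of which encode parts of the pyruvate dehydrogenase complex. Pdhb was at 2618, 3162, 3965 and 3288 in DIO-HFD against 3949 to 9399 (median 7017), overlapping by DIO-HFD replicate 3, and differed by -1.01 (SE 0.26, adjusted P = 0.1768). Pdha1, Dlat and Pdhx differed by -0.95, -0.84 and -0.68 (SE 0.25, 0.27 and 0.15), and Dlat met the requirement in 9 of the 16 fits that left out 1 library. The fifth was Hk2, a hexokinase of insulin-responsive tissue, at -0.82 (SE 0.23, adjusted P = 0.2122). The count of 5 was 3 without DIO-HFD replicate 1, DIO-VSG replicate 3 or DIO-VSG replicate 4 and 8 without DIO-HFD replicate 3. A list of pyruvate dehydrogenase and pyruvate import, drawn up after these values were seen, had 7 of 14 genes at the requirement, among them the pyruvate carrier subunit Mpc1, at -1.12 (SE 0.31, adjusted P = 0.2036), and 4 without DIO-LFD replicate 2 or 4.

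Mitochondrial oxidation had small differences spread over many genes. Of 71 nuclear genes of oxidative phosphorylation, 70 had a lower mean in DIO-HFD than in each low-fat group, 23 met the requirement and 10 were separated, and list medians were -0.47, -0.48 and -0.39 against CON-LFD, DIO-LFD and DIO-VSG. Members at the requirement came from all 4 complexes on the list. Complex I had 10 of 37 genes at the requirement (median -0.40), complex III 4 of 9 (-0.59), complex IV 5 of 10 (-0.52) and complex V 4 of 15 (-0.35). Uqcrh, the hinge protein of complex III, was at 4426, 4287, 4005 and 4594 against 5188 to 8948 (median 6295), with no overlap, and differed by -0.59 (SE 0.13, 1.5-fold lower, adjusted P = 0.1185). Atp5k and Atp5c1 of ATP synthase and Cox5a of cytochrome oxidase were also separated and differed by -0.69, -0.45 and -0.69. Summed over the 71 genes, the level was 225303, 294242, 339611 and 276057 in DIO-HFD and 288060 to 577805 (median 379987) in the low-fat libraries, so the sums overlapped. The count at the requirement depended on single libraries. It was 7 without DIO-HFD replicate 1, 13 without DIO-HFD replicate 4, 10 without DIO-LFD replicate 2, 14 without DIO-LFD replicate 4, and 5 and 9 without DIO-VSG replicates 3 and 4, while at least 66 of the 71 genes had a lower mean than in each group in each of the 16 such fits. With a B cell marker score as covariate it was 43.

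In the citric acid cycle, 18 of 19 genes were lower than in each low-fat group, 4 met the requirement and 3 were separated. Pcx, pyruvate carboxylase, which refills the cycle, was at 7033, 16805, 24697 and 14478 against 16113 to 72346, and differed by -1.50 (SE 0.35, adjusted P = 0.1421). Cs (citrate synthase), Idh3b and Mdh1 differed by -0.65, -0.66 and -0.48. The list's count at the requirement was 1 when any of replicates 1, 2 and 4 of DIO-HFD, replicates 2 and 3 of DIO-LFD, and replicates 3 and 4 of DIO-VSG was left out, and 2 without CON-LFD replicate 1 or 4 or DIO-LFD replicate 4. Of 23 fatty acid oxidation genes, 17 were lower and 1 was higher than in each group, and Cpt2 alone met the requirement, at -0.94 (SE 0.26, adjusted P = 0.1965). No gene of the list was lower at the requirement without DIO-HFD replicate 1 or 2, or without DIO-VSG replicate 3 or 4. For branched-chain amino acid breakdown 18 of 21 were lower and none of these met the requirement, but without DIO-HFD replicate 1 only 4 of 21 were lower. Abat, a transaminase that also degrades GABA, was higher by 1.76 (SE 0.51, adjusted P = 0.2122) and met the requirement except without DIO-HFD replicate 2, DIO-HFD replicate 3, CON-LFD replicate 3 or replicate 2 of DIO-LFD.

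Thermogenic adipocytes burn fuel for heat. All 17 tested genes of that list had a lower mean in DIO-HFD than in each low-fat group, and 2 met the requirement (4 without CON-LFD replicate 2, and 7 with a B cell marker score as covariate). The median difference was -2.05 against CON-LFD, -1.23 against DIO-LFD and -1.46 against DIO-VSG. Cidea, a lipid droplet protein of brown and beige cells (chr18:67343604-67367785), was at 43.5, 242, 111 and 209 normalized counts in DIO-HFD. The low-fat libraries ran from 286 to 14873 (median 1267), above every DIO-HFD library, and the difference was -3.62 (SE 0.90, adjusted P = 0.1649). Cox8b, the subunit of cytochrome oxidase typical of brown fat and muscle, was at 97.2, 172, 241 and 327 against 328 to 5662, a difference of -2.62 (SE 0.62, adjusted P = 0.1421). Ucp1, the uncoupling protein that defines these cells, was at 4.63, 226, 25.1 and 29.5 in DIO-HFD and at 15.3 to 24043 in the low-fat libraries, a range so wide that it did not meet the requirement (-4.86, SE 1.65, adjusted P = 0.2743). The low-fat libraries themselves differed widely, and the list's summed level reached 106482 in CON-LFD replicate 2. DIO-VSG replicates 1 and 2, at 15240 and 10846, lay inside the DIO-HFD range of 7547 to 15447. Of 14 skeletal muscle markers, 12 had a lower mean in DIO-HFD than in each group and 1, Myh4, met the requirement, except without CON-LFD replicate 4, DIO-LFD replicate 4 or DIO-VSG replicate 2. The muscle sum of 1028 to 3393 in DIO-HFD lay inside the low-fat range of 690 to 168736 (exact two-sided permutation P = 0.24, Benjamini-Hochberg adjusted 0.71, n = 4 and 12), and those 3 low-fat libraries had the highest sums. Cox8b is a gene of muscle too. The part of muscle in its values was not tested.

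**Figure D2:**
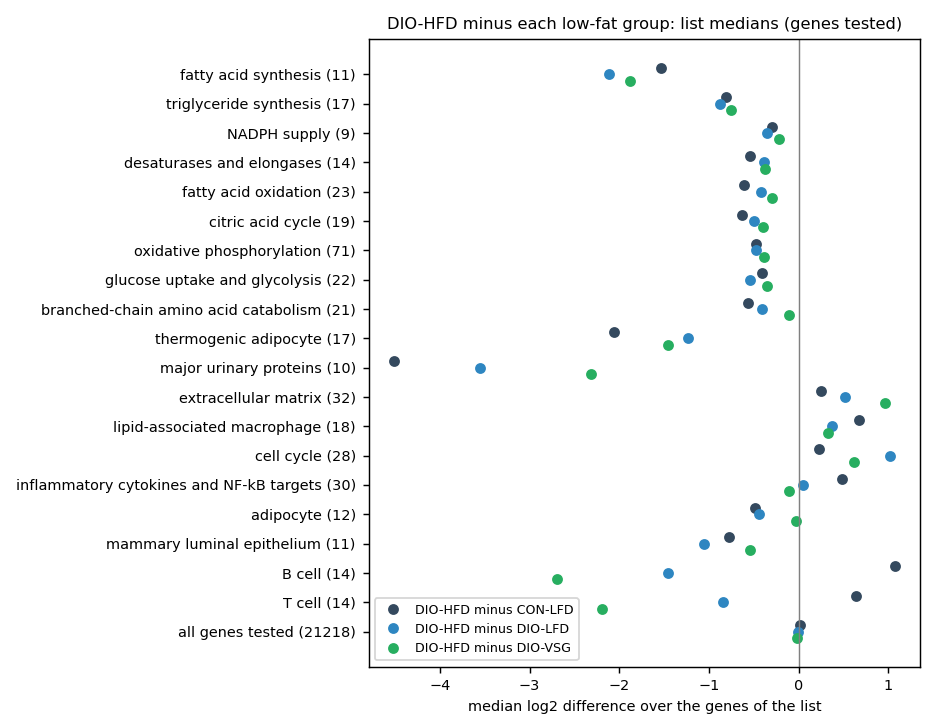
Median log2 difference of DIO-HFD from each low-fat group over the genes of 19 lists and over all genes tested, with the number of genes in brackets. Points left of 0 are lower in DIO-HFD. Lipid synthesis, mitochondrial, thermogenic and major urinary protein lists lie left of 0 against all 3 groups, while B cell and T cell lists are right of 0 against CON-LFD (1.08 and 0.64) and left of 0 against DIO-VSG (-2.70 and -2.20). The major urinary protein medians hold 1 gene at 0 reads in all DIO-HFD libraries.

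Major urinary proteins are lipocalins made mainly in liver and known also from mammary tissue. Their genes are near-identical copies, so that reads can be split among them, and single members are uncertain. Of 22 listed genes 10 were tested, all 10 had a lower mean in DIO-HFD than in each low-fat group, and 5 met the requirement (Mup3, Mup9, Mup10, Mup11 and Mup16). Summed over the family, which is less open to misassignment, the level was 39.8, 423, 69.9 and 138 normalized counts in DIO-HFD and 300 to 7817 (median 2217) in the low-fat libraries. Only DIO-LFD replicate 1 (300) and DIO-VSG replicate 1 (385) lay within the DIO-HFD range. Mup11 was at 0, 3, 0 and 4 reads in DIO-HFD against 7 to 396 reads in the low-fat libraries, with no overlap. Its fitted difference of -5.21 (SE 0.78, adjusted P = 0.1026) depends on the added count of 1 and is no bound. Mup14 had 0 reads in all 4 DIO-HFD libraries and 0 to 69 in the low-fat ones. With Mup14 set to a floor of 3 reads per DIO-HFD library, the list median was -4.18 against CON-LFD, -3.22 against DIO-LFD and -2.20 against DIO-VSG.

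The other leading lower genes met the same ranking rule, which, with no gene passing the adjusted threshold, was filled from the 430 genes in order of the largest of their 3 P values. Alb (serum albumin, chr5:90460897-90476602) was at 444, 1238, 1246 and 848 in DIO-HFD and at 1766 to 4205 (median 2682) in the low-fat libraries. These did not overlap, and the difference was -1.59 (SE 0.28, 3.0-fold lower, adjusted P = 0.1033). Syngr1 (synaptogyrin 1, a vesicle membrane protein, chr15:80091334-80119501) was at 239, 298, 211 and 338 against 401 to 872 and differed by -1.10 (SE 0.19, adjusted P = 0.1033). Aldoart1, a retrogene copy of aldolase A that can share reads with its parent, was at 5.55, 3.32, 10.9 and 4.10 against 11.4 to 34.2 (-1.71, SE 0.31, adjusted P = 0.1033). Its difference ran from -2.11 to -0.47 over the alternative fits.

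Cyp2e1, a cytochrome P450 that oxidizes ethanol, ketones and fatty acids, was at 1580, 3967, 6621 and 9703 against 13162 to 76255 (median 37528), again with no overlap, and differed by -2.88 (SE 0.51, 7.34-fold lower, adjusted P = 0.1033). Nat8l, which makes N-acetylaspartate from acetyl-CoA in brown fat and brain, was at 1156, 2466, 3491 and 3517 against 3911 to 10007 (-1.43, SE 0.30, adjusted P = 0.1185). Ptn (pleiotrophin, a secreted growth factor) was at 2307, 1638, 581 and 2403 against 3091 to 10164, a difference of -2.03 (SE 0.41, adjusted P = 0.1185). P2rx5, an ATP-gated channel used as a surface marker of brown adipocytes, differed by -1.53 (SE 0.28) and Sh2b2, an adaptor of the insulin receptor, by -1.11 (SE 0.23), both separated. Rtn4ip1, a mitochondrial oxidoreductase, and Uros, an enzyme of heme synthesis, had small separated differences of -0.66 and -0.43 (SE 0.14 and 0.09). Lrtm1, a membrane protein with leucine-rich repeats, was at 5.55, 6.64, 10.9 and 38.5 against 16.4 to 290 and overlapped by DIO-HFD replicate 4.

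Among higher genes, Cacna1e led. It encodes the pore-forming subunit of the R-type voltage-gated calcium channel (chr1:154390731-154884501). Its normalized counts were 5155, 15847, 10736 and 4896 in DIO-HFD. They were 892, 796, 2749 and 1132 in CON-LFD, 1929, 1336, 1856 and 1453 in DIO-LFD, and 2916, 2377, 2219 and 2163 in DIO-VSG. The groups did not overlap, the step being from 2916 to 4896, and DIO-HFD replicates 2 and 3 were above replicates 1 and 4. The difference was 2.73, 2.32 and 1.75 (SE 0.394 each) and 2.27 against the mean (SE 0.32, 4.81-fold higher, adjusted P = 0.1026). Of 18 voltage-gated calcium channel subunits, Cacna1e and Cacna1c (0.48, SE 0.10, adjusted P = 0.1185) met the requirement. In this list 6 were higher and 3 lower than in each low-fat group (23.5% and 24% of all genes tested), and the median was -0.06. With 1 library left out, 4 to 7 subunits were higher and 1 to 7 lower, and 1 or 2 met the requirement.

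Slc8a1, the sodium-calcium exchanger, was at 494, 861, 1125 and 397 against 188 to 358 (median 288), with no overlap, and differed by 1.33 (SE 0.26, adjusted P = 0.111). Mycbp2, a large ubiquitin ligase, was at 29866, 60685, 59859 and 28359 against 12328 to 26243 (1.20, SE 0.24, adjusted P = 0.1185). Synpo2, an actin-binding protein of smooth and striated muscle, was at 22574, 45343, 57473 and 26014 against 8958 to 25488, overlapping by CON-LFD replicate 4 (1.37, SE 0.28, adjusted P = 0.1185). As for Cacna1e, replicates 2 and 3 of DIO-HFD were above replicates 1 and 4 in Mycbp2, Synpo2 and Slc8a1, and the same pairs had low and high B cell sums (10327 and 15119 against 279065 and 151421). The part of lymphoid tissue in this order was not tested. Wscd1, a membrane protein with a sulfotransferase domain, was even across DIO-HFD (184, 183, 242 and 215) against 89.3 to 157, and differed by 0.78 (SE 0.14, adjusted P = 0.1033).

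**Figure D3:**
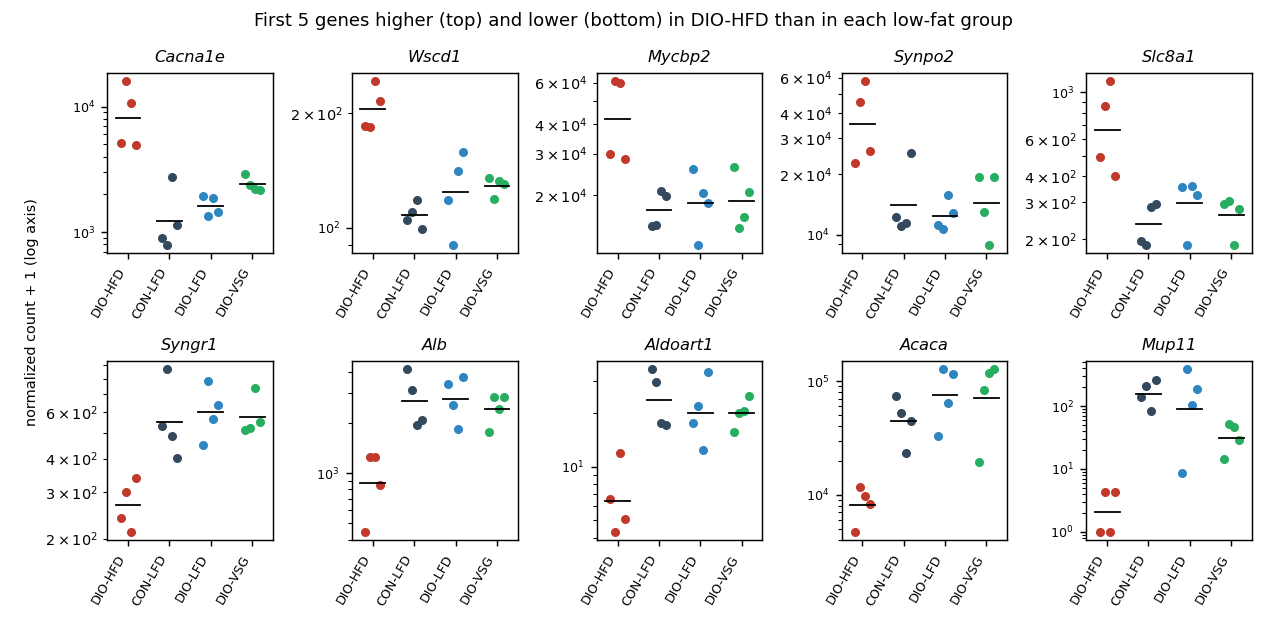
Normalized count + 1 (log axis) in every library for the 5 genes ranked first among those higher (top) and lower (bottom) in DIO-HFD than in each low-fat group. Points are libraries and bars are group means on the log scale. Of the 10 genes, Synpo2 is the one whose DIO-HFD points overlap with a low-fat library (CON-LFD replicate 4, 25488).

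Further higher genes were Gabrr2, a GABA receptor subunit, at 298, 962, 2284 and 522 against 54.3 to 295 (2.42, SE 0.44, adjusted P = 0.1033), and Slc40a1, ferroportin, the exporter of iron, at 1554, 1837, 2209 and 1502 against 412 to 1306 (1.05, SE 0.23, adjusted P = 0.1185). Both were separated. Flna (filamin A) and Tns3 (tensin 3), which link actin to the membrane, were also separated and differed by 0.57 and 0.66 (SE 0.12 and 0.14). Ehd3, a protein of endosome recycling, Cdc42ep3, an effector of the GTPase CDC42, Gnb4, a G protein subunit, and Scel, sciellin, differed by 1.29, 0.88, 0.61 and 1.46, each with an overlap. Usp29, a ubiquitin protease expressed from the paternal allele, was at 46.3, 309, 390 and 52.4 against 4.09 to 95 (3.29, SE 0.71, adjusted P = 0.1185). Over the alternative fits its difference ran from 1.60 to 3.78.

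**Figure D4:**
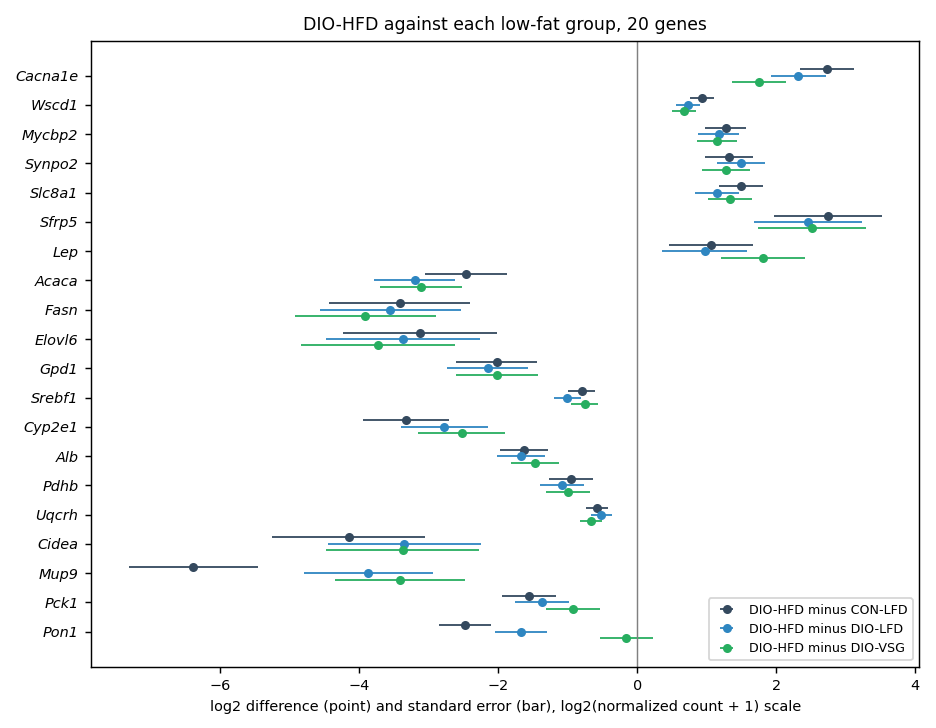
Log2 difference (points) with standard error (bars) of DIO-HFD from each of the 3 low-fat groups for 20 genes. The 3 points of Srebf1 lie close together (-0.80, -1.01 and -0.75). Pon1 is apart, at -2.48, -1.67 and -0.16.

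Secreted adipose proteins went in both directions. Of 16 adipokines, 7 were higher and 6 lower than in each low-fat group. Sfrp5, a secreted Wnt inhibitor, was at 6451, 32429, 26091 and 8226 in DIO-HFD against 869 to 11401 (median 2351), where the highest low-fat library was DIO-LFD replicate 1, and differed by 2.57 (SE 0.63, adjusted P = 0.1601). Apln, apelin, a peptide of adipocytes and vessels, was at 736, 1075, 1659 and 438 against 130 to 612 (1.90, SE 0.41, adjusted P = 0.1185). Nrg4, a growth factor of brown fat, and Rbp4, the retinol carrier, were each lower by a difference of -1.08 (SE 0.25 and 0.31). Lep, leptin, was at 37881, 103689, 237534 and 49364 against 9321 to 104465 and differed by 1.06, 0.97 and 1.81 from CON-LFD, DIO-LFD and DIO-VSG, without meeting the requirement (adjusted P = 0.3364). Adipoq, adiponectin, differed by -0.43, -0.17 and 0.03, so that its direction was not shared. Pon1, paraoxonase 1, was at 12, 42.1, 33.8 and 62.3 in DIO-HFD. DIO-VSG had 28.7 to 44.6, within that range, whereas CON-LFD and DIO-LFD had 81.3 or more, so Pon1 separated by group and not by the diet at dissection.

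Matrix, macrophage and cell division lists had higher medians with few single genes. Of 32 extracellular matrix genes, 25 had a higher mean in DIO-HFD than in each low-fat group and none a lower one, with medians of 0.26, 0.52 and 0.96 against CON-LFD, DIO-LFD and DIO-VSG. Thbs2, thrombospondin 2, was the 1 that met the requirement, at 17711, 55280, 25203 and 16347 against 3764 to 22164 (1.37, SE 0.36, adjusted P = 0.1919). With 1 library left out, 18 to 28 matrix genes were higher and 0 to 2 met the requirement. The summed matrix level of 526766 to 1236739 in DIO-HFD overlapped the low-fat range of 275047 to 1353241. Of 9 adipose progenitor markers, genes of the stromal cells that also make matrix, 6 were higher than in each low-fat group and none lower (2 to 6 higher with 1 library left out), with none at the requirement. Their medians were 0.16, 0.25 and 0.76 in the same order, and their sum was 98708 to 136222 against 52917 to 230433 (exact permutation P = 0.384). Their part in the matrix values was not tested. Of 18 genes of lipid-associated macrophages, 11 were higher and 1 lower, and 2 met the requirement. That count was 0 without DIO-HFD replicate 3, 4 without DIO-HFD replicate 1 or CON-LFD replicate 4, and 2 or 3 in the other fits without 1 library. Mmp12, macrophage elastase, was at 403, 951, 1795 and 355 against 98.5 to 607 (1.85, SE 0.48, adjusted P = 0.1824), and Itgad, an integrin of tissue macrophages, at 153, 685, 3424 and 117 against 6.36 to 126 (3.60, SE 0.88, adjusted P = 0.1576). General macrophage markers summed to 53520 to 82960 in DIO-HFD against 21105 to 159535. Of 28 cell cycle genes 23 were higher (13 without DIO-HFD replicate 3 and 15 without CON-LFD replicate 2) and none met the requirement. Of 30 inflammatory genes 9 were higher and 1 lower, and of 25 interferon response genes 5 and 1, none at the requirement. Over all genes tested, 23.5% were higher and 24% lower than in each group. Without DIO-HFD replicate 1 the inflammatory genes stood at 9 higher and 10 lower. With 1 library left out, 3 to 10 interferon response genes were higher and 0 to 4 lower, and both highest counts were those without DIO-HFD replicate 1.

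Other lists held at most 2 genes at the requirement. In cholesterol synthesis 10 of 24 were lower and 5 higher than in each group (24% and 23.5% of all genes tested). Acat2 and Tm7sf2 met the requirement (-1.11 and -0.65). With 1 library left out, 8 to 15 were lower, 3 to 8 were higher and 1 to 4 met the requirement, with 15 lower without DIO-HFD replicate 3 and 8 higher without DIO-HFD replicate 1. In lipolysis, fatty acid uptake, insulin signalling, Nrf2 targets and the circadian clock, the genes were Cidea, Acsl1 (-1.25), Pde3b (-0.75), Gsta4 (-1.11) and Bhlhe41 (-0.69). Cidea, Acsl1 and Gsta4 met the requirement in all 16 fits that left out 1 library, Pde3b in 12 and Bhlhe41 in 11. In such fits insulin signalling and the circadian clock had 0 or 1 gene lower at the requirement, and the other 3 lists 1 or 2. The unfolded protein response had Ddit3 (0.22, SE 0.08), which met the requirement in 4 of the 16 fits that left out 1 library. The fasting response and immediate early genes had none.

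Cell type markers moved as follows beside these results. Of 12 adipocyte markers, 8 were lower than in each low-fat group and none met the requirement. Without DIO-HFD replicate 1 only 2 were lower, without DIO-VSG replicate 3 or 4 there were 4, and without DIO-HFD replicate 3 there were 11. The adipocyte sum was 563029 to 1588635 in DIO-HFD and 891849 to 1936236 in the low-fat libraries. Of 11 luminal epithelium markers tested, 10 were lower and 2 met the requirement, Krt18 (2.0-fold lower) and Prlr, the prolactin receptor, which adipocytes also express (-1.23, SE 0.30). With 1 library left out, 1 to 4 luminal markers met it. The luminal sum was 35313, 76033, 42831 and 46748 against 53970 to 184359 (exact two-sided permutation P = 0.00275, Benjamini-Hochberg adjusted over 14 marker sums P = 0.0385, n = 4 and 12). This test pooled the 12 low-fat libraries and was not run against each group. DIO-HFD overlapped CON-LFD (53970 to 115798), DIO-LFD (69431 to 184359) and DIO-VSG (68417 to 100171). Prlr is part of the sum, with a mean of 12854 in DIO-HFD against 30441, where the mean sums were 50231 and 96105. Of 7 markers of dividing or tumor epithelium, the 3 keratins were lower than in each low-fat group, with Krt18 and Krt7 (-0.98, SE 0.23, adjusted P = 0.1421) at the requirement. The division genes Top2a, Cdk1 and Birc5 were higher than in each without meeting it, and the list median was 0.26 (-0.38, 0.91 and 0.15 against CON-LFD, DIO-LFD and DIO-VSG), while the list's summed level went the other way. That sum was 24119 to 29059 against 25387 to 78103 (exact permutation P = 0.0379, Benjamini-Hochberg adjusted 0.244). Endothelial sums were 64673 to 111229 against 58123 to 118543 (exact permutation P = 0.0522, Benjamini-Hochberg adjusted 0.244), and 8 of 10 endothelial markers were higher than in each group (4 to 10 with 1 library left out), none at the requirement. B cell, T cell and lymph node stroma markers had 0 of 14, 0 of 14 and 1 of 8 genes with a mean in 1 direction against each low-fat group, but this rested on single libraries. Lower than in each group were 13 T cell, 6 B cell and 5 lymph node stroma genes without DIO-HFD replicate 1, and 8, 12 and 5 without CON-LFD replicate 2. Without DIO-HFD replicate 4 the 3 counts were 6, 2 and 2, and without CON-LFD replicate 4 they were 8, 0 and 3. Luminal cells also make lipid, and their part in the lower lipogenic genes was not tested. The milk protein genes Wap and Lalba, which mark a secreting gland, were too low to be tested.

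**Figure D5:**
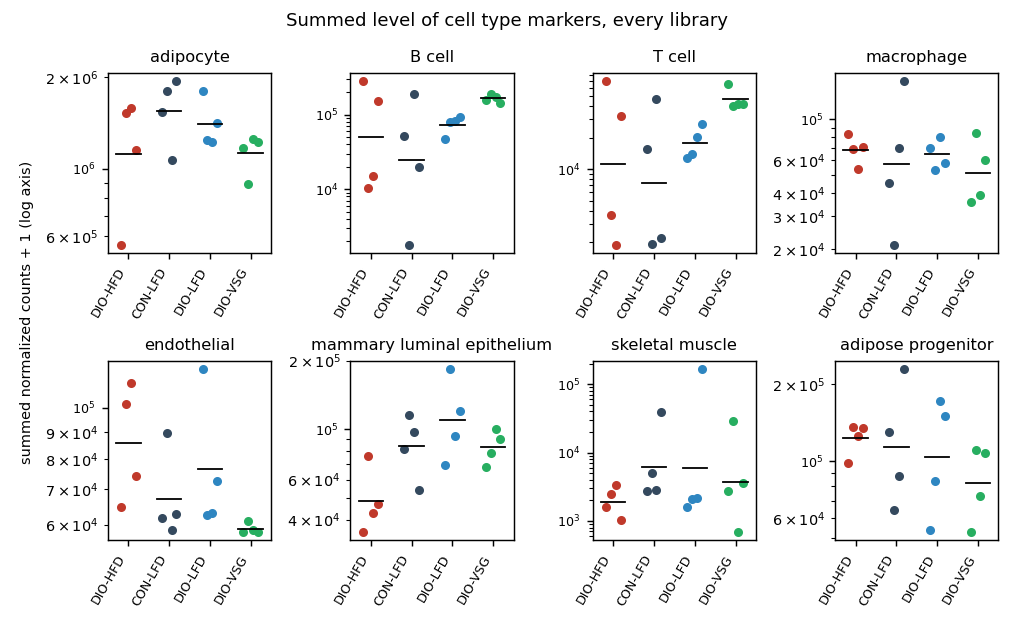
Summed normalized counts + 1 (log axis) of 8 cell type marker lists in each library. Points are libraries and bars are group means on the log scale. DIO-HFD overlaps the low-fat groups in all 8, B cell sums span 10327 to 279065 within DIO-HFD alone, and luminal sums are lowest in DIO-HFD replicate 1 (35313).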

How the data were processed

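Total RNA was extracted from the contralateral mammary fat pads and sequenced as stranded, paired-end libraries. According to the study's methods, the authors mapped reads to GRCm38 (STAR), quantified Gencode transcripts (salmon), dropped genes whose counts summed to under 10 and normalized with DESeq2. The submitters' processing notes name TopHat2 2.0.7 and HTSeq 0.5.3p9 instead, per the labels, and the difference was not resolved. Removal of the lymph node was not described. The deposited values of 23179 genes, described by the authors as normalized counts, were log2 values after a variance-stabilizing transformation, with a shared minimum of 5.36. The transformation was inverted. Divided by the step of 1 read, 100% of values in every library were whole to within 0.02 reads.

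A log-scale test was chosen because the deposited unit was log2. No count model was fitted, although whole reads were recovered and the voom fit used them. By the study's account, the authors' own DESeq2 tests found numerous differentially expressed genes between DIO-HFD and each low-fat group. Genes reaching 10 normalized counts in 4 or more libraries were tested with limma 3.58.1 in R 4.3.3 (limma-trend, 4 group means, two-sided, Benjamini-Hochberg over 21218 genes) on log2(normalized count + 1). DIO-HFD was set against the mean of the 3 low-fat group means and against each group. A gene was to be called if it passed the adjusted threshold of 0.05 and an unadjusted 0.05 with the same sign against each group. The comparison, the gene lists and the rule for named genes were chosen with earlier results of these data known. Named were the first 15 genes in each direction by the largest of the 3 P values, filled from genes at the unadjusted requirement because none was called, up to 4 genes of a list in the same order, and a fixed set (Acaca, Fasn, Acly, Scd1, Srebf1, Mlxipl, Lep, Adipoq, Pck1, Cacna1e, Pon1 and Mup genes). Other named genes, and the lists of pyruvate dehydrogenase, glycogen, coenzyme A, liver-typical proteins, smooth muscle, adhesion, imprinted genes and vessel growth, were chosen after values were seen. Marker sums were compared by exact permutation over the 1820 ways to choose 4 of 16 libraries. P values measure the spread between these libraries. Taken over all genes, counting error is small beside that spread. This does not cover genes with few reads, such as Mup11 (0 to 4 reads in DIO-HFD) and Mup14 (0 reads). Of the symbols, 22176 (95.7%) matched 1 gene each in GENCODE M21 (GRCm38), which gave coordinates. Promoters are from RefSeq. Alternatives were another pseudocount, filter, scaling, the voom method, 2 marker covariates, library weights, a replicate block and leaving out each library. The code was tested on simulated data.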

Additional observations from a re-analysis of the deposited data

Results flagged for a closer look

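In 12 of 136 groups of 4 values examined (8.82%), 1 library lay far from the other 3 relative to the group's range on the log scale. The erythroid sum of 464129 in DIO-LFD replicate 1 did not reach the cutoff on that scale. Chance gives about 1 in 20 such groups if they are independent and normally distributed, but these groups share libraries. Among genes, Synpo2 was at 25488 normalized counts in CON-LFD replicate 4, against 11005 to 12305 in the other CON-LFD libraries, and is the library that overlaps with DIO-HFD. Slc8a1 was at 188 in DIO-LFD replicate 2, against 323 to 358. Fasn was at 60159 in DIO-VSG replicate 1, against 455881 to 604113. Srebf1 was at 8923 in CON-LFD replicate 3, against 13582 to 14505, and this library sets the narrow step to the DIO-HFD values. Mlxipl was at 1765 in DIO-HFD replicate 1, against 3317 to 3754. Lep was at 67714 in CON-LFD replicate 4, against 31744 to 34589.

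Among marker sums, the endothelial sum was 89492 in CON-LFD replicate 2, against 58596 to 62795, and 61008 in DIO-VSG replicate 2, against 58123 to 58485. The T cell sum was 64991 in DIO-VSG replicate 1, against 40437 to 42562. The skeletal muscle sum was 168736 in DIO-LFD replicate 4, against 1615 to 2190. The erythroid sum was 22925 in DIO-VSG replicate 2, against 39181 to 42735. The sum of markers of dividing or tumor epithelium was 25686 in CON-LFD replicate 4, against 43729 to 47570.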

How the results depend on the processing

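The count of 0 genes called stayed 0 with a pseudocount of 5, the deposited log2 values, other filters, 2 groups in the model, voom, quantile normalization, median centring, a skeletal muscle score as covariate and predicted genes left out. With library weights 4350 genes passed against the low-fat mean and 1509 of them held against each group (1509 also at the unadjusted requirement). There DIO-HFD replicate 4 had a weight of 10.9 and the other libraries 0.222 to 2.35. That replicate also had the highest sum of keratinocyte and basal epithelium markers, 26519 against at most 17990 elsewhere. Krt1, Krt10 and Lor of that list were among the genes that held, as higher genes. With a B cell score as covariate the counts were 128, 127 and 746. With the replicate block 1 gene, Mup11, was called and held (1 and 1). Whether the replicate numbers pair the samples was not settled. Of 24 same-numbered pairs 9 correlated above 0.1, and 7 of 16 libraries correlated best with their own number. Acaca and Fasn were lowest in replicate 1 within DIO-HFD, DIO-LFD and DIO-VSG, but highest in replicate 1 within CON-LFD. A shared order of the replicates was not tested. Leaving out 1 library gave 0 to 19 genes called and 0 to 19 that held (19 without CON-LFD replicate 3, 10 without DIO-LFD replicate 1, 1 without DIO-VSG replicate 1), and 272 (without DIO-VSG replicate 3) to 513 (without DIO-HFD replicate 1) at the unadjusted requirement, against 430.

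The 19 included Cacna1e, Srebf1, Acaca, P2rx5, Mup11, Ehd3 and Mup3, and the 10 included Mup11, Fasn, Acaca, Cacna1e, Mup9 and Lrtm1. For each of these named genes, the library left out held its group's value closest to DIO-HFD. The share of lower genes among those at the requirement, 71.6%, was 43.7% without DIO-HFD replicate 1, 86.6% without DIO-HFD replicate 3, 61.7% without DIO-HFD replicate 4, 52.5% with the muscle covariate and 80.8% with the B cell covariate. Acaca, Fasn, Cacna1e and Srebf1 met the unadjusted requirement in all 29 alternative fits. Of the 16 fits that left out 1 library, Tm7sf2 and Mdh1 met it in 4, Idh3b and Cs in 7, Pnpla3 in 9, Me1 and Thbs2 in 10 and Rbp4 in 11. Of the genes whose difference was recomputed under every alternative, which are not all of those named, 2 turned direction, neither of which met the requirement: Scd1, from -1.23 to 0.20 with quantile normalization, and Adipoq, from -0.19 to 0.17 without DIO-HFD replicate 1. The medians of the fatty acid uptake and T cell lists also crossed 0 with 1 library left out (-0.38 to 0.03 and -1.79 to 0.16), as did those of other lists, cholesterol synthesis, adipokines, inflammatory genes and calcium channels among them. With 4 libraries in DIO-HFD single libraries weigh heavily. Depth limits the Mup genes, 1 of which had 0 reads in all DIO-HFD libraries.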

Other observations

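The lists and genes here were chosen after their values were seen, and no test is attached to the lists. Of 16 glycogen genes, 12 had a lower mean in DIO-HFD than in each low-fat group and 5 met the unadjusted requirement in limma-trend. Gbe1, the branching enzyme, was at 1201, 1893, 2097 and 1972 normalized counts in DIO-HFD, below all low-fat libraries (2348 to 5343), a log2 difference of -1.17 (SE 0.26, adjusted P = 0.1185). Gys2, glycogen synthase of liver and fat, was at 128, 189, 943 and 408 against 229 to 2752 (-2.08, SE 0.62, adjusted P = 0.2228). Pygl and Ppp1r3b differed by -1.09 and -1.33. The count was 2 without DIO-HFD replicate 1, 3 without DIO-LFD replicate 4 and 8 without DIO-HFD replicate 3. In coenzyme A synthesis 3 of 8 genes met the requirement. Slc5a6, the transporter of the precursor pantothenate, was at 942, 1360, 864 and 1572 against 1741 to 4830, with no overlap (-1.12, SE 0.24, adjusted P = 0.1185), and Coasy and Pank3 differed by -0.69 and -0.70.

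Of 12 liver-typical secreted proteins tested, 8 were lower than in each group and Alb, Rbp4 and Proc met the requirement, Proc (protein C) with a difference of -1.30 (SE 0.38). Without DIO-HFD replicate 1 the count was 1. Of 22 imprinted genes, 8 were higher and 3 met the requirement. With 1 library left out, 6 to 14 were higher (14 without DIO-HFD replicate 1 and 12 without CON-LFD replicate 4) and 2 to 5 met the requirement. Peg10 was at 1020, 12896, 10106 and 1056 in DIO-HFD against 224 to 1424 (2.81, SE 0.65, adjusted P = 0.1421), and Zim1 at 2011, 13397, 11697 and 1783 against 409 to 6837 (2.39, SE 0.62, adjusted P = 0.1815). Peg3 was at 16805, 84105, 81311 and 18394 and did not meet the requirement (adjusted P = 0.2473). In all 3, and in Usp29, DIO-HFD replicates 2 and 3 stood well above replicates 1 and 4, and the highest low-fat values of Zim1 (6837) and Peg3 (59709) were those of DIO-LFD replicate 1. Of 18 genes of cell adhesion and actin linkage, 15 were higher and 4 met the requirement (Flna, Tns3, Tln1 and Tpm4), Tln1 (talin 1) with a difference of 0.48 (SE 0.11). Of 16 genes of blood vessel growth, 7 were higher, with Apln and Angpt2 (0.78, SE 0.16, adjusted P = 0.1185) at the requirement. Of 10 smooth muscle genes, 6 were higher and 1 lower, with Synpo2 at the requirement.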
